A study of Mus musculus with 36 samples.

Results

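Transcripts that disappeared fastest after transcription was blocked were measured in N4bp1 knockout (KO) mouse macrophages, by comparing 2 groups: 3 h of R837, and 3 h of R837 followed by 0.5 h of actinomycin D (ActD). Each group held 3 RNA-seq libraries, 6 of the 36 in the series, and all genes with enough counts were tested. The cells were bone marrow-derived macrophages grown with the growth factor M-CSF, and per the labels the 3 libraries of a group came from 3 individual mice. The series also held wild-type (WT) macrophages under the same conditions, ActD times of 1, 2 and 4 h, and R837 alone for 7 h. All groups compared here received R837, so none was unstimulated. The protocol in the labels names C57BL/6N for wild-type mice, while the KO allele, the cells in which it was deleted and the background of the KO mice are not given in the sources used here. Libraries were not numbered by mouse, so libraries of different times may share mice, and the p-values treat all libraries as independent.

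ActD binds DNA and stops RNA polymerases, so that after it is added a transcript's level reflects its decay. R837 (imiquimod) activates Toll-like receptor 7 and turns on inflammatory genes in macrophages, many of whose mRNAs carry AU-rich elements in the 3′ untranslated region (3′ UTR) that the ZFP36 family binds to speed decay. N4BP1 is an RNA-binding protein with a NYN nuclease domain, related to the mRNA-cleaving enzyme Regnase-1. No spike-in was used here, so every level is relative to the average transcript of the same library, and a fall means a faster loss than that average. The ActD libraries also had 0.5 h more in culture than the libraries without it, and that time and ActD cannot be told apart.

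Short stretches of the 3′ UTR are shown for members that fell strongly, because motifs of AU-rich elements were present in a larger share of the strongest falls than of all genes tested, 47.1% against 8.0% for the nonamer shown. Capitals mark TTATTTATT, a nonamer at the core of AU-rich elements, or, where the 3′ UTR held no nonamer, the pentamer ATTTA, which is also contained in the nonamer. A single copy is marked in each stretch, and further copies, as in those of Tnf and Ier3, are left in lower case. Sequences are 25 bases, in GRCm38, 5′ to 3′ on the transcript strand, and come from the GENCODE M21 transcripts.
Tnf, chr17:35199691-35199715, minus strand: tgcacttaTTATTTATTatttattt
Zfp36, chr7:28376953-28376977, minus strand: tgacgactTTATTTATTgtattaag
Dusp1, chr17:26506161-26506185, minus strand: gctggtccTTATTTATTtaacaccc
Clcf1, chr19:4223400-4223424, plus strand: attaatatTTATTTATTtggagatg
Cxcl1, chr5:90892617-90892641, plus strand: ttatgtatTTATTTATTccacaaag
Cxcl2, chr5:90905318-90905342, plus strand: gagttcacTTATTTATTtatctatg
Fos, chr12:85477105-85477129, plus strand: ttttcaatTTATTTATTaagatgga
Ier3, chr17:35822483-35822507, plus strand: tctaattaatATTTAtgtatttatg
Dusp2, chr2:127337994-127338018, plus strand: gcagaaattaATTTAattaattaat
Socs3, chr11:117966863-117966887, minus strand: aggcagtagcATTTAgaagggagac
Il6, chr5:30018444-30018468, plus strand: tgactttaatATTTAatccttggca
Il10, chr1:131024387-131024411, plus strand: tctccgaaatATTTAttacctctga
The 3′ UTR of Tnf held 5 nonamers in 764 bases, that of Cxcl2 held 4 in 1494 bases, and those of Dusp1, Clcf1 and Cxcl1 held 2 each.

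The 6 libraries held 21.0 to 31.9 M counts. Macrophage markers fixed in a list (18 of 18 tested) summed to 41820 to 46900 CPM (counts scaled to the normalized size of the library) without ActD and to 42892 to 46331 CPM with it. Neutrophil markers (13 of 13 tested) summed to 660.3 to 767.4 CPM and to 659.9 to 705.2 CPM, led by S100a8 and S100a9. Over the 6 libraries, the sums were 26.4 to 31.3 CPM for T and NK cell markers (5 of 11 tested, with Cd4 at 20.5 to 23.0 CPM), 174 to 195 CPM for B and plasma cell markers and 666 to 743 CPM for dendritic cell markers. The dendritic cell markers Flt3, Clec9a, Zbtb46 and Siglech were each at 2.83 CPM or less, so most of the dendritic sum came from other genes. Stromal markers summed to 50.7 to 60.1 CPM and mast cell markers to 1.89 to 2.58 CPM (4 of 9 tested). Cd3e, Cd3g and Tpsb2 had 0 or 1 count in each library, whereas Cd8a had 51 to 78 and Mcpt8 19 to 39. The library labelled KO at 3 h, replicate 1, stood apart in the neutrophil granule gene Elane, at 17.4 CPM against 4.69 and 4.98 CPM in the others of its group. Its neutrophil marker sum, 660.3 CPM, was the lowest of that group. The granule gene Ctsg was also highest in this library, and ranged from 3.10 to 23.7 CPM over the 6 libraries. The granule genes Ngp, at 93.7 to 104.7 CPM, and Mpo, at 9.78 to 14.7 CPM, varied less. N4bp1 itself was at 84.1 ± 2.45 CPM in KO and at 125, 147 and 128 CPM in the 3 WT libraries before ActD, fewer reads in KO but far from none. Exons that the KO allele keeps can still give reads, so the labels are only partly checked by this. In bulk samples, fewer cells of a type and less RNA per cell cannot be told apart.

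In the first 0.5 h of ActD, the largest falls among genes with a mean of at least 5 CPM were of transcripts for the cytokine TNF, the stress-response protein IER3, the mRNA-decay factor ZFP36, the MAP kinase phosphatase DUSP1, the cytokine CLCF1 and the phosphatase DUSP2, each at 6.27 to 11.2% of its level before ActD. Of 13748 genes tested, 1023 changed (7.44%), with 596 lower (4.34%) and 427 higher (3.11%), by edgeR's quasi-likelihood test at a Benjamini-Hochberg adjusted p of 0.05. A fall of at least 2-fold was found for 120 genes (0.873%) and of at least 4-fold for 18 (0.131%). In 119 of the 120, the 3 libraries with ActD all lay below the 3 without it, which was the case for 1631 genes tested (11.9%). The 120 were chosen from these same libraries, so this separation largely follows from the choice and is no separate support. Rises were small, and of the 13 that reached 2-fold (0.0946%) only Nos2 had a mean of at least 5 CPM. The division into falls and rises depended on scaling: 58.3% of changed genes fell as analysed, 88.3% (485 lower, 64 higher) when libraries were scaled to ribosomal protein genes, which put the median of all genes at -0.056 log2 instead of 0.002, and 35.8% (544 lower, 977 higher) after a trend with gene width was removed. Without replicate 3 of the ActD libraries the counts were 339 lower and 205 higher, and without replicate 3 of the libraries before ActD 210 were higher; the count of 2-fold falls stayed between 95 and 136 in every alternative.

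**Figure D1:**
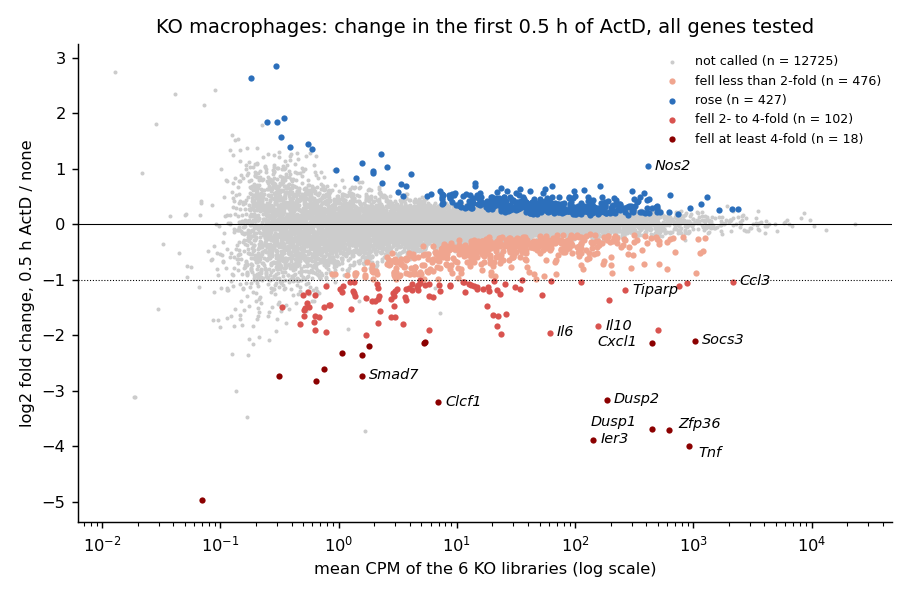
Log2 fold change in KO macrophages (0.5 h of ActD over none) against mean CPM of the 6 libraries on a log axis, one point per gene tested, coloured by the edgeR call; the dotted line marks a 2-fold fall. The 18 genes that fell at least 4-fold include abundant transcripts such as Tnf, Zfp36 and Socs3, whereas the blue points for the 427 rises stay close to 0 at high levels, with Nos2 the highest among genes of at least 5 CPM.

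The 120 genes made up 14915 CPM in the mean of the libraries before ActD and 4451 CPM after 0.5 h, that is 1.49% and 0.445% of all counts. Their summed level was 14773 to 15140 CPM in the 3 libraries without ActD and 4303 to 4626 CPM in the 3 with it, so 29.8% was left. The 18 genes at 4-fold or more fell from 6643 to 6854 CPM to 866 to 891 CPM. These sums describe genes chosen by this same contrast and are given without a test. A mean below 5 CPM was found for 66 of the 120, and 117 were protein coding. For 10 of the 18 genes at 4-fold or more the mean reached 5 CPM: Tnf, Ier3, Zfp36, Dusp1, Clcf1, Dusp2, Yod1, Cxcl1, Zfp748 and Socs3. One of the others, Frs3, had no count in any library with ActD, so its fitted change is no measure of size.

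Among secreted signals, Tnf (ENSMUSG00000024401, chr17:35199381-35202007, minus strand, GRCm38) had the largest fall of the genes with at least 5 CPM. Its level was 1746, 1699.5 and 1739.9 CPM in the libraries without ActD and 106, 108 and 111 CPM in those with it. The groups were far apart and the spread within each was small, and the log2 fold change was -3.99 ± 0.06 (SE; edgeR adjusted p = 4.42e-36), with 6.27% left. Il6, which encodes the inflammatory cytokine interleukin 6, was at 81.5, 97.1 and 112 CPM and then at 22.6, 30.9 and 21.8 CPM (log2 -1.95 ± 0.12, edgeR adjusted p = 4.23e-16). Il10, encoding an anti-inflammatory cytokine, was at 236, 236 and 266 CPM before and at 65.3, 73.0 and 69.0 CPM after (log2 -1.83 ± 0.10). Neither gene's groups overlapped.

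Fewer reads stood behind Clcf1, a cytokine of the interleukin 6 family, which went from 11.9, 13.4 and 12.3 CPM to 1.30, 0.860 and 1.79 CPM (log2 -3.21 ± 0.21). Il23a, encoding a subunit of interleukin 23, went from 9.14 ± 0.852 to 2.44 ± 0.301 CPM (mean ± SD, n = 3). Tnfsf9, the ligand of the T cell receptor 4-1BB, left 38.7% (log2 -1.37 ± 0.07), with 277, 273 and 287 CPM before and 108, 109 and 108 CPM after. Of 26 cytokines tested, 12 fell (46.2%), 8 of them at least 2-fold, and 2 rose. Their median log2 change was -0.35 against 0.00 for all genes, of which 4.34% fell, 0.873% at least 2-fold, and 3.11% rose. At an adjusted p of 0.01, 7 of the cytokines fell. Not every inflammatory cytokine moved. Il1b was at 1301, 1484 and 1596 CPM and then at 1484, 1706 and 1544 CPM (log2 0.11 ± 0.08, edgeR adjusted p = 0.492), and its groups overlapped. Il12b, encoding a subunit shared by interleukins 12 and 23, was at 309 ± 37.9 and 335 ± 27.3 CPM (log2 0.12 ± 0.14, edgeR adjusted p = 0.717), while Csf3 had few reads, at 4.65 ± 0.946 and 3.68 ± 0.455 CPM (log2 -0.33 ± 0.15, edgeR adjusted p = 0.228).

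Among chemokines, Cxcl1 and Cxcl2, which attract neutrophils, had the largest falls that passed. Cxcl1 went from 687, 653 and 827 CPM to 162, 167 and 165 CPM (log2 -2.13 ± 0.11, edgeR adjusted p = 1.07e-18), and Cxcl2 from 754, 747 and 892 CPM to 211, 222 and 207 CPM (log2 -1.90 ± 0.09, edgeR adjusted p = 5.53e-19). Both were well apart between groups. Ccl2, a monocyte attractant, went from 949.6, 957 and 1204 CPM to 463, 529 and 436 CPM (log2 -1.12 ± 0.09). Ccl3 was the most abundant of the 10 highest 2-fold falls, at 2850.2, 2868 and 2958 CPM before and 1385, 1492 and 1354 CPM after (log2 -1.04 ± 0.09). Of 19 chemokines tested, 5 fell (26.3%) and 1 rose, beside 4.34% and 3.11% of all genes, with a median of -0.15. Ccl4, whose gene neighbours Ccl3, had a log2 change of 0.05 and did not pass, and Ccl5 was at 257, 313 and 328 CPM before and 309, 286 and 313 CPM after (log2 0.02 ± 0.13, edgeR adjusted p = 0.966, with a sign that changed between alternatives).

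**Figure D2:**
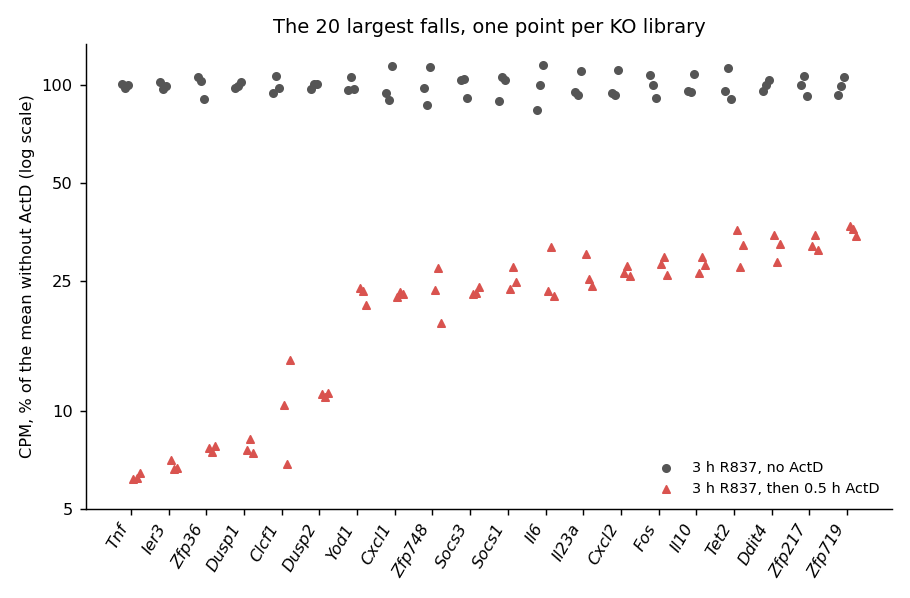
CPM of each KO library as a percentage of the gene's mean without ActD (log axis) for the 20 largest falls among genes of at least 5 CPM, with circles for the 3 libraries without ActD and triangles for the 3 with 0.5 h of it. Groups fully apart were a condition for entry, so every triangle lies below every circle of its gene. The triangles of the 6 genes from Tnf to Dusp2 sit below those of the others, Tnf at 106 to 111 CPM after 1699.5 to 1746 CPM.

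Transcripts of signalling inhibitors were also lost fast. Dusp1, which encodes a phosphatase that inactivates MAP kinases, went from 809, 822 and 842 CPM to 62.6, 67.6 and 61.0 CPM (log2 -3.69 ± 0.09, edgeR adjusted p = 1.72e-30). Dusp2, a nuclear phosphatase of the same family, went from 326, 338 and 337 CPM to 37.7, 36.8 and 37.8 CPM (log2 -3.16 ± 0.08, edgeR adjusted p = 2.19e-28). The libraries of each group were close together and the groups far apart. Of 12 dual-specificity phosphatases, 7 fell (58.3%), 3 of them at least 2-fold (the third was Dusp5, log2 -1.10 ± 0.13). None rose, beside 3.11% of all genes, of which 4.34% fell, and the median of the 12 was -0.37. The falls numbered 4 without replicate 1 of the libraries with ActD.

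Socs3, which encodes an inhibitor of JAK-STAT signalling, was at 1726, 1745 and 1528 CPM before ActD and at 381, 385 and 399.6 CPM after it (log2 -2.10 ± 0.09, edgeR adjusted p = 4.25e-20). Its relative Socs1 went from 37.4 ± 3.35 to 9.50 ± 0.778 CPM and Cish from 43.1 ± 3.04 to 19.6 ± 1.05 CPM, with log2 changes of -1.98 ± 0.16 and -1.14 ± 0.15. Of 11 SOCS genes and related inhibitors, 5 fell (45.5%) and 1 rose, beside 4.34% and 3.11% of all genes. The rise was of Ptpn1, encoding a tyrosine phosphatase, from 296 ± 18.8 to 417 ± 22.1 CPM (log2 0.49 ± 0.07). The falls numbered 3 without replicate 3 of either group, and 3 under ribosomal scaling. In the NF-κB pathway, Tnfaip3, encoding the ubiquitin-editing inhibitor A20, was at 1227, 1235 and 1148 CPM and then at 582, 587 and 563 CPM (log2 -1.06 ± 0.05, edgeR adjusted p = 1.15e-18). Nfkbia, encoding the inhibitor IκBα, left 54.7% (1362 ± 48.3 to 745 ± 21.8 CPM, log2 -0.87 ± 0.06). Of 24 NF-κB genes 5 fell (20.8%) and 1 rose, beside 4.34% and 3.11% of all genes, with a median of 0.05.

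Regulators of mRNA decay were themselves among the members. Zfp36 (ENSMUSG00000044786, chr7:28376784-28380253, minus strand), encoding tristetraprolin, which binds AU-rich elements, was at 1243, 1203 and 1059 CPM before and at 89.8, 87.3 and 91.0 CPM after (log2 -3.71 ± 0.11, edgeR adjusted p = 1.96e-27). Its relatives Zfp36l1 and Zfp36l2 were far less abundant, and left 46.5% and 44.2%. These 3 were the only falls of 2-fold or more among the 34 decay and RNA-binding regulators tested. Of the 34, 10 fell (29.4%) and 1 rose, beside 4.34% and 3.11% of all genes. The falls numbered 5 without replicate 1 of the libraries before ActD, 5 without replicate 3 of those with it, and 5 under ribosomal scaling. Zc3h12a, encoding Regnase-1, had a log2 change of 0.21 and did not pass. N4bp1 was at 86.0, 85.0 and 81.3 CPM and at 89.0, 88.2 and 89.3 CPM (log2 0.08 ± 0.08, edgeR adjusted p = 0.636).

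Immediate-early genes showed a wide range. Ier3 (ENSMUSG00000003541, chr17:35821684-35822923, plus strand), which protects cells from stress-induced death, was at 273, 259 and 265 CPM before and at 18.8, 17.6 and 17.7 CPM after (log2 -3.88 ± 0.08, edgeR adjusted p = 1.07e-31). The AP-1 subunit Fos left 27.9% (34.3 ± 2.72 to 9.63 ± 0.634 CPM), whereas Junb left 57.0% (765 ± 66.7 to 436 ± 42.2 CPM). Of 29 early response genes tested, 15 fell (51.7%) and 1 rose, beside 4.34% and 3.11% of all genes. The median of the 29 was -0.51, and Ier3, Ier5 and Csrnp1 reached 2-fold. Among 14 AP-1 and ATF factors 6 fell (42.9%), of which only Fos reached 2-fold, and 1 rose. Among 30 short-lived transcription regulators 9 fell (30%) and none rose. The falls were led by Smad7, an inhibitor of TGF-β signalling, at 2.73 ± 0.367 CPM before and 0.415 ± 0.192 CPM after. Irf1, a transcription factor of the interferon response, left 60.6% (477 ± 19.3 to 289 ± 0.900 CPM, log2 -0.72 ± 0.07).

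The list with most falls held transcripts known for AU-rich elements: 21 of 26 fell (80.8%), 12 at least 2-fold, and none rose, with a median of -1.001 beside 0.00 for all genes tested. It shares Tnf, Il6, Il10, Cxcl1, Cxcl2, Fos, Zfp36, Ier3 and Dusp1 with the groups above. The members that did not pass were Csf2, Ifnb1, Csf3, Ccl4 and Il1b, with log2 changes of -1.25, -0.35, -0.33, 0.05 and 0.11. Of 14 Regnase-1 targets 9 fell (64.3%) and 1 rose, beside 4.34% and 3.11% of all genes, with a median of -0.38. At the other end, none of 50 ribosomal protein and elongation factor genes, 24 lysosomal enzyme genes or 16 small RNA host genes was called, and their medians were 0.05, 0.07 and -0.02. None of 17 glycolysis genes, 26 respiratory chain genes and 25 splicing factor genes fell, while 2, 1 and 2 of them rose. Of 31 type I interferon response genes 4 rose and 2 fell, beside 3.11% and 4.34% of all genes, with a median of 0.15. Usp18, which restrains interferon signalling, went from 319, 359.8 and 378 CPM to 456, 547 and 449 CPM (log2 0.46 ± 0.08). Under scaling to ribosomal protein genes the 427 rises became 64.

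**Figure D3:**
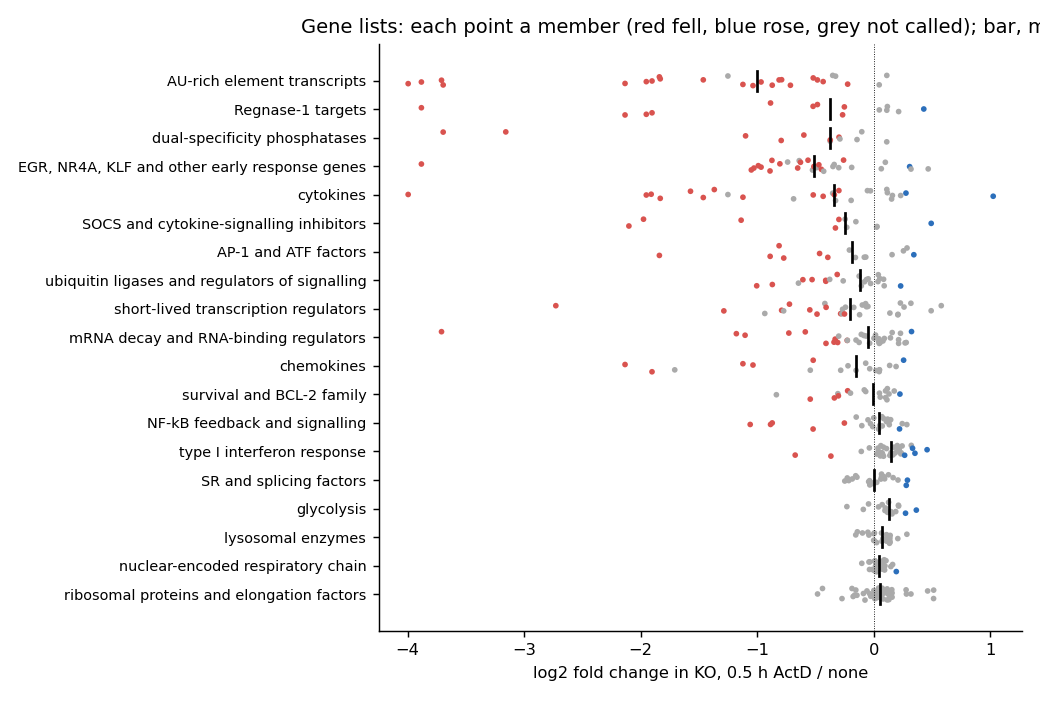
Log2 fold change in KO (0.5 h of ActD over none) for every tested member of 19 gene lists, with red points for members that fell, blue for those that rose, grey for those not called and a bar at the median. The median of the AU-rich element list lies at -1.001, and those of the ribosomal, lysosomal and respiratory chain lists lie between 0.05 and 0.07, with no red point.

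Motifs in the 3′ UTR were not used to choose the members. The longest annotated 3′ UTR of each protein-coding gene was searched on the transcript strand, for 11618 of the 13748 genes. At least 3 copies of ATTTA were present in 38.6% of all these genes and in 17 of 17 genes (100%) that fell at least 4-fold and had a 3′ UTR annotated. The share was 63.0% for falls of 2- to 4-fold, 70.6% for smaller falls, 37.4% for genes not called and 24.5% for rises. TTATTTATT was present in 8.0% of all genes, in 8 of the 17 (47.1%), and in 26.0%, 17.97%, 7.4% and 6.0% of the other classes in the same order. The 17 include Frs3, which had no count with ActD, and of all 18 falls of at least 4-fold only 10 had a mean of at least 5 CPM. Genes that fell also had longer 3′ UTRs, with a median of 1474 bases for the 4-fold falls, 1828 for 2- to 4-fold falls and 1164 for all. Among 3′ UTRs of 500 to 2000 bases, the nonamer was in 20 of 59 genes (33.9%) that fell at least 2-fold, against 6.5% of all genes in that range and 4.1% of rises. At least 3 copies of ATTTA were in 64.4% of the 59, 32.0% of all and 21.1% of rises. A match says only that the letters are there; Dusp2, Socs3, Il6 and Il10 fell strongly with no nonamer in the window searched, and Nfkbia, which fell less, held 1.

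The lost genes had few exons, with a median of 4 in the transcript with most exons for both the 4-fold and the 2- to 4-fold falls, against 7 for smaller falls, 8 for all genes and 11 for rises. The median span of the gene was 8.1 kb for 4-fold falls, 14.8 kb for 2- to 4-fold falls, 27.1 kb for smaller falls, 18.9 kb for all and 23.2 kb for rises. The median exonic width was 3011 bases for 4-fold falls, 3970 for 2- to 4-fold falls and 4389 for smaller falls. It was 2869 for all genes and 3270 for rises, so a width above that of all genes was not particular to falls. Tnf has 4 exons, Ier3 has 2 and Il6 has 5, while Nos2, the largest rise of the genes with at least 5 CPM, has 27. These features were compared as descriptions, without a test. Zinc finger genes named Zfp, apart from the Zfp36 family, made up 42 of the 120 lost genes, and the features of the others alone were not examined. Base composition differed as well, with a median G+C content of the 3′ UTR of 44.4% for all genes, 45.5% for 4-fold falls, 40.3% for 2- to 4-fold falls and 49.6% for rises, and its part in the result was not tested.

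A further group was seen only after the values: 42 of the 120 genes have a symbol beginning with Zfp and a number, a naming used for zinc finger genes, with the Zfp36 family left out, and 5 more are named Zbtb. Over all such genes tested, 82 of 306 Zfp genes fell (26.8%) and 3 rose, with a median of -0.38, and 13 of 36 Zbtb genes fell (36.1%), beside 4.34% for all genes. Their levels were low, and 12 of the 42 had a mean of at least 5 CPM. Zfp748 went from 8.65, 7.66 and 10.0 CPM to 2.06, 2.41 and 1.63 CPM (log2 -2.12 ± 0.20, edgeR adjusted p = 3.58e-10). Zfp217 left 32.6% (39.5 ± 2.86 to 12.9 ± 0.723 CPM) and Zfp719 left 35.9% (26.7 ± 1.68 to 9.58 ± 0.349 CPM). Zinc finger genes have many similar copies, so that reads counted for one may come from another. Other members of the 20 largest falls were Yod1, encoding a deubiquitinase (log2 -2.13 ± 0.18), Tet2, encoding a DNA demethylating enzyme (-1.64 ± 0.13), and Ddit4, encoding an inhibitor of mTOR signalling (-1.64 ± 0.12).

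At the 2-fold line the values of genes with a mean of at least 5 CPM were continuous. Just inside it were Csrnp1 (log2 -1.03), Zfp26 (-1.02) and Trib1 (-1.004), and just outside it were Ier2 (-0.99), Zfp266 (-0.99) and Zfp729a (-0.98).

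Some transcripts gained on the average in the same interval. Nos2 (ENSMUSG00000020826, chr11:78920787-78960254, plus strand), encoding inducible nitric oxide synthase, was at 270.3, 288 and 249 CPM before and at 533, 588 and 544 CPM after (log2 1.04 ± 0.11, edgeR adjusted p = 1.94e-09). The groups did not overlap, which was a condition for naming the largest rises, and the level at 1 h was lower again, at 349 ± 39.4 CPM. Hp, encoding haptoglobin, went from 126 ± 8.12 to 202 ± 20.7 CPM (log2 0.69 ± 0.10). The prostaglandin E synthase gene Ptges went from 241 ± 3.30 to 366 ± 27.6 CPM (log2 0.60 ± 0.05), and Pla2g4a, encoding a phospholipase that releases arachidonic acid, from 48.5 ± 1.85 to 77.9 ± 0.337 CPM (log2 0.69 ± 0.09). The T cell and macrophage surface receptor gene Slamf1 and the nucleoside transporter gene Slc28a2 also rose, by 0.73 ± 0.09 and 0.62 ± 0.06 log2. All 6 kept the call in every alternative run.

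At later ActD times some of the lost transcripts fell further and others had higher levels again. The test was the change from 1 h to 2 h of ActD, in 6 KO libraries that the 0.5 h comparison did not use. In this interval 3309 of 13748 genes changed (24.1%), 2371 fell (17.2%) and 938 rose (6.82%), and among the 120 lost genes 55 fell (45.8%) and 2 rose, Cxcl2 and Ccl3. Dusp2 went from 37.4 ± 0.519 CPM at 0.5 h to 5.27 ± 1.08 at 1 h, 1.44 ± 0.280 at 2 h and 0.802 ± 0.108 CPM at 4 h, and from 1 to 2 h it fell by 1.89 on the log2 scale (± 0.15, edgeR adjusted p = 3.22e-13). Socs3 went from 388 ± 9.82 CPM at 0.5 h to 56.6 ± 7.67, 15.98 ± 1.55 and 9.62 ± 0.584 CPM (1 to 2 h log2 -1.83 ± 0.11, edgeR adjusted p = 2.42e-17). Both were lower at every later time. Tnf, lost most in the first 0.5 h, then changed slowly, with 78.8 ± 1.08, 60.6 ± 3.36 and 44.3 ± 2.61 CPM at 1, 2 and 4 h (1 to 2 h log2 -0.38 ± 0.06, edgeR adjusted p = 2.7e-06).

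Genes with a smaller loss at 0.5 h could lose more later. Nfkbia, at 745 ± 21.8 CPM after 0.5 h, was at 116 ± 6.74, 24.8 ± 1.14 and 14.3 ± 0.783 CPM at 1, 2 and 4 h, with a 1 to 2 h log2 change of -2.22 ± 0.07 (edgeR adjusted p = 4.59e-26). Junb and Irf1 had 1 to 2 h changes of -2.78 ± 0.10 and -2.78 ± 0.08. Among the 30 short-lived transcription regulators 22 fell from 1 to 2 h, when 17.2% of all genes fell, and 9 in the first 0.5 h, when 4.34% did. Tiparp, encoding an ADP-ribosyltransferase, went from 162 ± 18.4 CPM at 0.5 h to 36.02 ± 1.26 CPM at 1 h and 6.30 ± 0.508 CPM at 4 h.

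**Figure D4:**
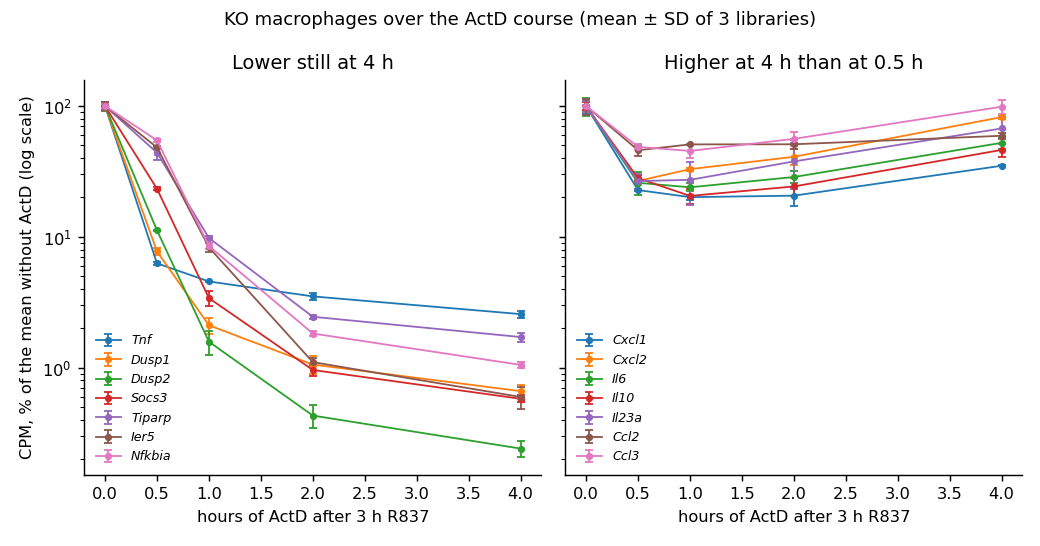
KO levels over 0 to 4 h of ActD as a percentage of the mean without ActD (log axis), points for the mean and bars for the SD of 3 libraries, in 7 genes that were lower still at 4 h (left) and 7 that were higher at 4 h than at 0.5 h (right). Dusp2 ends at 0.802 CPM after 334 CPM without ActD, and Ccl3 ends at 2859 CPM after 2892 CPM.

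Several cytokine and chemokine transcripts had higher levels at 4 h than at 0.5 h. Cxcl2 was at 213 ± 7.53 CPM at 0.5 h, 262 ± 6.42 at 1 h, 327 ± 45.6 at 2 h and 656 ± 15.9 CPM at 4 h (1 to 2 h log2 0.32 ± 0.09, edgeR adjusted p = 0.00752). Ccl3 was at 1410.4 ± 72.5, 1312 ± 162, 1623 ± 201 and 2859 ± 350.0 CPM (1 to 2 h log2 0.31 ± 0.09, edgeR adjusted p = 0.0101). Both rose from 1 to 2 h. Il6 was at 25.1 ± 5.02, 23.2 ± 1.64, 27.8 ± 2.97 and 50.7 ± 4.97 CPM and Il10 at 69.1 ± 3.86, 50.6 ± 6.38, 59.7 ± 9.05 and 114 ± 12.6 CPM, and neither passed from 1 to 2 h (edgeR adjusted p = 0.117 and 0.078). Over all 120 lost genes, 19 had a higher mean at 4 h than at 0.5 h, among them Cxcl1, Il23a, Ccl2 and Gdf15. Of these 19, 10 had a mean of at least 5 CPM. The 120 were chosen for low values at 0.5 h, which favours a later gain. The share over all genes was not counted, so the 19 are a description only. The interval from 1 to 4 h, added after the data were seen, had 69 of the 120 lower (57.5%) and 10 higher (8.33%), beside 33.1% and 23.9% of all genes. Among the 10 were Il6 (log2 1.13 ± 0.12, edgeR adjusted p = 6.93e-11) and Il10 (log2 1.17 ± 0.10, edgeR adjusted p = 2.59e-13). The summed level of the 120 was 2790 to 3200 CPM at 1 h, 2809 to 3435 at 2 h and 4397 to 5095 CPM at 4 h. Whether the later gain is of these transcripts or a loss of the average transcript cannot be told apart on this scale.

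The same 0.5 h was measured in WT macrophages, in 6 libraries shared with none of the KO ones. There 483 genes fell (3.51%) and 509 rose (3.7%), and 108 fell at least 2-fold (0.786%), of which 80 were also among the KO 120 (66.7% of the KO genes and 74.1% of the WT genes). The WT count of changed genes, 992 (7.22%), ranged from 603 to 1864 on leaving out 1 library, with 1864 without WT 0.5 h replicate 3, 617 and 625 without replicates 2 and 1 of that group, and 603 and 623 without WT 3 h replicates 1 and 3. Of the 120 KO genes, 118 had a negative change in WT, whether or not it was called there. The share of all genes with a negative change was not counted. The medians of the 120 were -1.30 in KO and -1.19 in WT, beside 0.00 and 0.01 for all genes tested. Tnf had a log2 change of -3.89 ± 0.06 in WT, Ier3 -3.62 ± 0.08, Zfp36 -3.73 ± 0.11, Dusp1 -3.71 ± 0.09 and Dusp2 -3.14 ± 0.08. Across the 8778 genes with a mean of at least 5 CPM, the changes in KO and WT had a Pearson correlation of 0.81 and a Spearman correlation of 0.71, and over all 13748 genes 0.40 and 0.47, a description across genes, which are not independent replicates.

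Tests of the difference between the genotypes, KO change minus WT change, found 3 genes (0.0218%), all lower in KO relative to WT, with 450 genes (3.27%) at an unadjusted p below 0.05 and none called by DESeq2. None of the 120 lost genes was among the 3. The difference was -0.10 ± 0.08 log2 for Tnf, -0.26 ± 0.11 for Ier3, 0.35 ± 0.13 for Cxcl2, 0.25 ± 0.17 for Il6 and 0.54 ± 0.23 for Gdf15, each with an edgeR adjusted p of 0.999718. The 3 genes were Ctsg, encoding the granule protease cathepsin G, Car4, encoding a carbonic anhydrase, and Rab44, encoding a RAB family GTPase, and of these only Ctsg had a mean of at least 5 CPM. Each was led by a single library on either side. Ctsg was at 23.7 CPM in KO 3 h replicate 1 and at 5.06 and 3.21 CPM in the other two, and at 39.5 CPM in WT 0.5 h replicate 2 and at 2.14 and 3.16 CPM in the other two of that group. Without that WT library its difference went from -4.20 to -1.68, and without KO 3 h replicate 1 it was -2.79, and in neither case was any gene called. Elane, also expressed in neutrophil precursors, was at 17.4 CPM and 22.9 CPM in the same 2 libraries; the part of such cells in these values was not tested.

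**Figure D5:**
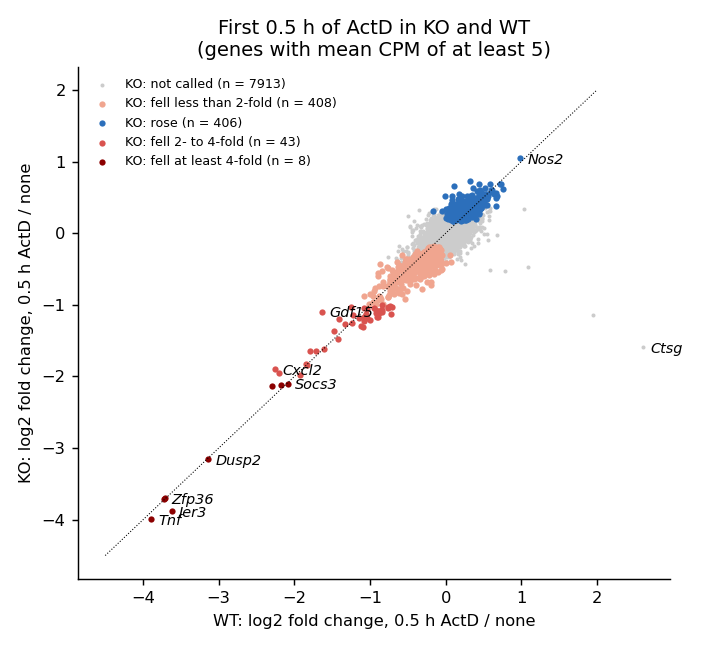
Log2 fold change over 0.5 h of ActD in KO (vertical) against WT (horizontal) for 8778 genes with a mean of at least 5 CPM over the 12 libraries, coloured by the KO call; the dotted line marks equal change. Tnf, Ier3, Zfp36 and Dusp2 lie near the line, and Ctsg lies far to its right, at 2.60 in WT and -1.59 in KO.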

How the data were processed

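Per the labels, RNA-seq was from 36 libraries, 3 for each of 12 groups, as single-end 50-base reads of a TruSeq v2 library, a kit that does not mark strand. Reads were aligned with GSNAP to GRCm38, per the submitters' processing notes, and the counting program, annotation release and strand setting are not given in the sources used here. Reads of overlapping or antisense genes therefore cannot be told apart. The deposited files gave a whole-number count and an RPKM value per gene, made by the authors. The counts were used for every test and for CPM, and the authors' RPKM values only to compare levels between genes. Of 52636 gene identifiers, 52489 were named from GENCODE M21. The 36 libraries held 20.3 to 46.1 M counts, which sets the precision of genes with few counts.

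Normalization was by TMM, filterByExpr left 13748 genes, and one model of the 12 group means was fitted with edgeR 4.0.16 (R 4.3.3, quasi-likelihood F test, Benjamini-Hochberg adjustment at 0.05 over all genes tested). The common biological coefficient of variation was 7.48%. The contrasts were KO 0.5 h minus KO 3 h, the same in WT, their difference, and KO 2 h minus 1 h of ActD. CPM values are mean ± SD of 3 libraries and log2 fold changes are ± SE. The steps were tested on simulated counts. Replicate numbers follow record order only.

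Genes named were those with a mean of at least 5 CPM, called, and with groups fully apart: the 20 largest falls, the 10 largest rises and the 10 most abundant of those lost at least 2-fold. Also named were the 4 lowest-p members in each of 31 lists, N4bp1, 9 fixed cytokines and chemokines, the genotype differences called and the 3 genes nearest the 2-fold line on each side. Other genes, among them list members given only by their log2 change, Frs3 and the Zfp and Zbtb groups, were chosen after their values were seen. Predicted genes were not named. The comparison and the lists were chosen with earlier results of these data known. Alternatives were RLE size factors, scaling to ribosomal protein genes, an adjusted p of 0.01, a stricter filter (1 CPM in 3 libraries) and none, DESeq2 1.42.0, a fit limited to the groups compared, omission of each library in turn, removal of the trend with gene width, and, added after seeing the data, the interval from 1 to 4 h.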

Additional observations from a re-analysis of the deposited data

Results flagged for a closer look

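In 3 genes the change over 0.5 h of ActD differed between KO and WT by the test of the difference itself (edgeR quasi-likelihood, over 13748 genes). The KO change minus the WT change was -11.07 log2 for Car4 (adjusted p = 0.0178), -4.77 for Rab44 and -4.20 for Ctsg (both adjusted p = 0.0466). Car4 had no count in 2 of the 3 KO libraries with ActD, so the size of its fitted difference depends on the model and is no measure. It was at 8.68 CPM in KO 3 h replicate 1 and 22.9 CPM in WT 0.5 h replicate 2, and at 0 to 0.65 CPM in the other 10 libraries of the comparison. Rab44 was at 4.48 and 5.94 CPM in those 2 libraries, and below 1 CPM in the others. Without WT 0.5 h replicate 2 the differences were -7.07, -2.64 and -1.68 for Car4, Rab44 and Ctsg, and without KO 3 h replicate 1 they were -7.84, -3.04 and -2.79, with an edgeR adjusted p of 1 in all 6 cases. The cause was not tested.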

How the results depend on the processing

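Of 83 named genes called in KO, 68 kept the call in every alternative, with all 20 largest falls among them, and no called gene changed sign. The other 15 had small changes or few counts (Zbtb46), such as Mcl1, Csf1r, Cflar, Xiap, Stat2 and Xaf1. The count of 2-fold falls was 95 to 136. At an adjusted p of 0.01, 540 genes changed in KO (360 lower, 180 higher), 472 in WT and 0 between genotypes. Scaling to ribosomal protein genes gave 549 in KO (64 higher), 374 in WT and 0 between genotypes. Removing the width trend gave 977 rises in KO. With only the libraries compared, 268 changed in WT and 0 between genotypes. The genotype count was 27 with no filter and 0 with the stricter filter and with DESeq2. From 1 to 4 h, 7837 genes changed, beside 3309 from 1 to 2 h. Leaving out 1 library gave 544 to 900 changed genes in KO, with 339 to 563 lower, 205 to 349 higher and 95 to 130 lower by 2-fold. It gave 603 to 1864 in WT, 0 to 13 between genotypes and 2701 to 2970 from 1 to 2 h. Ccl5, not called, changed sign, at -0.00312 with RLE, -0.0303 with ribosomal scaling, -0.00364 with DESeq2, and from -0.0809 to 0.0897 on leaving out 1 library (-0.0809 and -0.00442 without KO 3 h replicate 1 and KO 0.5 h replicate 3). The cause of these shifts was not tested beyond the stricter threshold and the fewer libraries. No paired analysis was possible because the labels carry no replicate numbers. Depth limits the 66 lost genes below 5 CPM, and the absence of a spike-in limits all levels to relative ones.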

Other observations

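Per length, the most abundant of the fast-lost transcripts before ActD were those of the chemokines Ccl3 and Ccl2, followed by Tnf. In the authors' RPKM values (KO, 3 h of R837, means of 3 libraries), Ccl3 stood at 3642 RPKM, Ccl2 at 1229, Tnf at 1018 and Cxcl1 at 731 RPKM. Socs3 was at 630.3 RPKM, Cxcl2 at 414 and Dusp1 at 399.7 RPKM. Il6, at 38.5 RPKM, and Clcf1, at 6.54 RPKM, were far lower.

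Other lists also held falls in the first 0.5 h, beside 4.34% of all genes tested. Of 16 p53 targets 5 fell (31.2%), among them Gdf15, a stress-induced cytokine (log2 -1.10 ± 0.15), and Btg2, which restrains proliferation (-0.89 ± 0.08), and 1 rose. Among 22 ubiquitin ligases and related regulators 7 fell (31.8%) and 1 rose, and Trib1, a pseudokinase that directs protein degradation, reached 2-fold. Of 18 survival genes 4 fell (22.2%) and 1 rose, with a median of -0.01. Among the falls was Bcl2l1, which blocks cell death, from 172 ± 3.22 to 118 ± 4.74 CPM (log2 -0.54 ± 0.06). The survival genes that fell numbered 1 without KO 0.5 h replicate 3. They numbered 2 without KO 3 h replicate 1 or 3, under ribosomal scaling and with the width trend removed. Mcl1, a survival factor with a short-lived mRNA, left 85.6% after 0.5 h (log2 -0.22 ± 0.06, edgeR adjusted p = 0.0243, a call lost in some alternatives) and was at 548 ± 23.6, 232 ± 18.02 and 87.3 ± 9.33 CPM at 1, 2 and 4 h. Of 22 proliferation genes 1 fell and none rose.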
